A study of Mus musculus with 18 samples.

Results

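The fibroblast, pericyte and collagen genes were 38 genes taken by symbol from the 50600 gene identifiers of the count table, and all 38 were expressed highly enough to be tested. They comprised 14 collagen genes, 7 matrix glycoprotein and proteoglycan genes, 2 lysyl oxidase genes, 4 surface markers of fibroblasts, 7 genes of mural cells (the pericytes and smooth muscle cells that wrap blood vessels) and 4 genes of the contractile apparatus. Their RNA was measured by bulk sequencing of whole B16F10 tumors, a mouse melanoma grown under the skin of C57BL/6 mice.

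Fibroblasts make most of the interstitial matrix of a tumor. Fibrillar collagens are secreted as procollagens, assembled into fibers with the help of fibronectin, fibrillin and small leucine-rich proteoglycans, and crosslinked by lysyl oxidases. Pericytes sit within the vascular basement membrane, a sheet of type IV collagen and laminin that they share with the endothelium, and activated fibroblasts and mural cells both carry a contractile apparatus of smooth muscle actin.

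Tumors were established by subcutaneous injection of B16F10 cells into the flank of young female mice without any engineered allele, and all agents were injected into the tumor. CDN2, which the labels call CL656, is a cyclic dinucleotide that activates the innate sensor STING, exoCDN2 is extracellular vesicles (EVs) carrying that compound, made by the human cell line HEK293, and unloaded EVs are the vesicles alone. Tumors were collected 24 h after 1 dose of PBS, EVs, exoCDN2 (0.1 µg), CDN2 (20 µg) or CDN2 (100 µg), or 24 h after the second of 2 doses, 3 days apart, of PBS, exoCDN2 (0.1 µg) or CDN2 (20 µg), with 2 tumors in each of these 8 groups. A further 2 tumors received 2 doses of CDN2 in an amount the labels do not give, and they entered no comparison.

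Total expected counts lay between 21608895 (CDN2 20 µg, 2 doses, tumor 1) and 65983630 (exoCDN2, 2 doses, tumor 2), and the lowest count of any of the 38 genes in any tumor was 15, for Kcnj8. Levels are given as CPM, counts scaled to a common library total, in tumor 1 and tumor 2 of a group. Differences are log2 fold changes (log2FC) with their standard error from edgeR's quasi-likelihood test, and a gene was called changed at a Benjamini-Hochberg adjusted p under 0.05 over 16927 genes together with a ratio over 2. At 2 tumors against 2 the smallest two-sided p of an exact permutation test is 0.333, so tests rest on a spread shared over all groups, and p-values measure only the spread between these tumors. The melanocyte genes that mark B16F10 cells were abundant throughout, at a summed 7858 to 27177 CPM over 10 genes. In a bulk sample, fewer cells of a type and less RNA per cell cannot be told apart.

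Several of the genes lie side by side in the genome, and sequences are shown for the neighbors called together after 1 dose of CDN2. Col4a1 and Col4a2, which encode both chains of the common type IV collagen molecule, are transcribed away from each other on chromosome 8, and their annotated first exons share 22 bases at chr8:11312805-11312826 (GRCm38), printed here on the plus strand.
Col4a1 and Col4a2 overlap: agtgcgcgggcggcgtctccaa
The rule by which reads in these 22 bases were assigned was not given in the sources used here. Abcc9 and Kcnj8, which encode the sulfonylurea receptor SUR2 and the Kir6.1 pore of the vascular potassium channel of pericytes, lie 16247 bases apart on the same strand of chromosome 6. Upstream sequence was taken from RefSeq (GRCm38.p6), whose promoter table held 25 of the 38 genes, and cut where an annotated exon began. The Abcc9 stretch runs over chr6:142702316-142702524 and the Kcnj8 stretch over chr6:142571615-142571864, both on the minus strand.
Abcc9 upstream: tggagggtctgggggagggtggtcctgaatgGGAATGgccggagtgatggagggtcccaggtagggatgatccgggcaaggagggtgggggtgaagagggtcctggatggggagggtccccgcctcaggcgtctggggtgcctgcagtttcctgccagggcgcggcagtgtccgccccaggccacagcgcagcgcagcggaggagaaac
Kcnj8 upstream: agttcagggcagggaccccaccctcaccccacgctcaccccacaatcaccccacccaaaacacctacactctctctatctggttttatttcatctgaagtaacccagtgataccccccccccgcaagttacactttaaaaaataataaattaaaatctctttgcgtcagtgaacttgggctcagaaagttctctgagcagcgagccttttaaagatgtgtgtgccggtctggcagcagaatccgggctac
Capitals mark a match to the MCAT motif CATTCC, read here on the opposite strand, which began 219 bases before the Abcc9 start and was found on either strand in 11.03% of all 32851 upstream stretches of that length. Myl9, the regulatory light chain of smooth muscle myosin, is shown as a member of the contractile genes. These were all called higher after 2 doses of CDN2 than after 2 doses of PBS. The Myl9 values after CDN2 overlapped those after 1 dose of PBS. The Myl9 stretch covers chr2:156775214-156775419 on the plus strand.
Myl9 upstream: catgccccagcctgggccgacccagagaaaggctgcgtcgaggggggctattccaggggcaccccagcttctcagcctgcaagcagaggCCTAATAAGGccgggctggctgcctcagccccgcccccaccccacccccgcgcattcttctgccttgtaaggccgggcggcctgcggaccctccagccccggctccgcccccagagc
Capitals mark a match to the CArG box, the recognition element of serum response factor, 161 bases before the start. A CArG match on either strand was present in 1.2% of all upstream stretches of this length. It was the only CArG match in the 19 upstream stretches of at least 100 bases that were searched, from 18 of the 38 genes. Of the other contractile genes, Des was among these stretches and held no match, and Acta2 and Tagln were not among them. The same search covered the TATAAA and CCAAT motifs, and the stretches printed here held neither. The matches describe the letters only.

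In the PBS tumors the 38 genes covered a wide range of levels. Per kilobase of exon, Sparc was the highest after 1 dose of PBS at a mean 152 CPM, followed by Mcam at 26.9, Col4a1 at 20.2 and Col4a2 at 18. Sparc encodes a collagen-binding matricellular protein, and Mcam and Cspg4, used here as mural markers, are also known from melanoma cells. Fap, the fibroblast activation protein, was lowest at 0.174 CPM per kilobase, below Pdgfra at 0.405 and Abcc9 at 0.550. The defining fibroblast and pericyte markers were all present, at uneven levels. Dcn lay at 8.06 and 18.4 CPM, Pdgfra at 3.27 and 4.86 and Kcnj8 at 1.72 and 1.62, while Pdpn lay at 29.4 and 29.0, Rgs5 at 20.7 and 28.3 and Thy1 at 12.4 and 14.3. Between 1 and 2 doses of PBS none of the 38 genes was called by edgeR, with 3 at an unadjusted p under 0.05 and 0 called by DESeq2, against 1.10% of all genes.

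**Figure D1:**
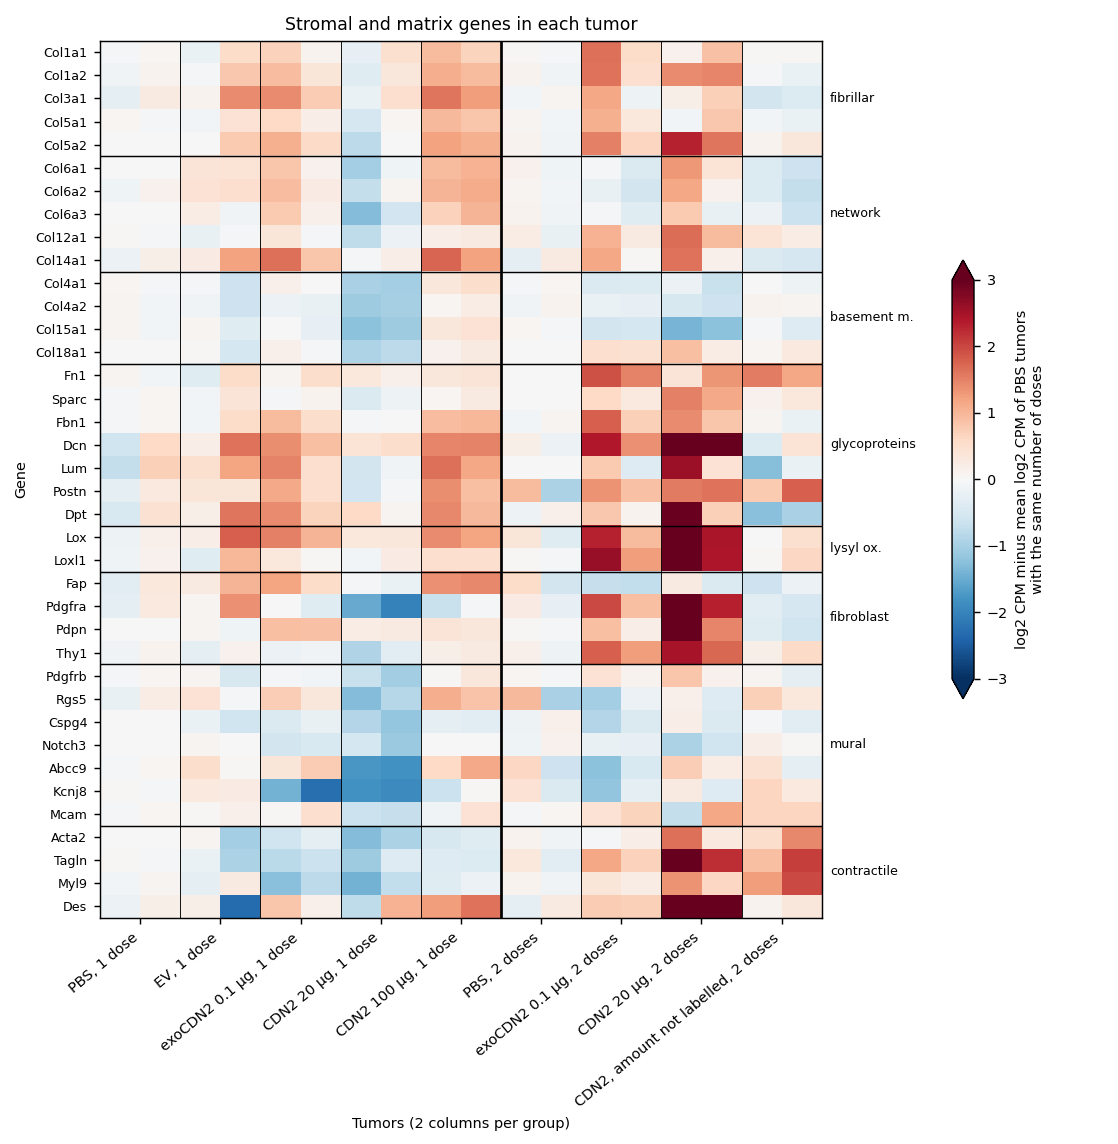
Color shows log2 CPM of each gene (rows, grouped by role) in each of 18 tumors (columns, 2 per group) minus the mean log2 CPM of the PBS tumors with the same number of doses, with the scale ending at -3 and 3. Basement membrane and mural genes are blue after 1 dose of CDN2 (20 µg), and the upper end of the scale is passed by Dcn, Lox, Loxl1, Pdgfra, Pdpn, Tagln and Des after 2 doses, where Dcn reached 1255 CPM against 12.9 to 16.7 in PBS.

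A single dose of CDN2 (20 µg) was compared with PBS to see how the free agonist changed the tumor. It lowered 5 of the 38 genes, all of the vascular part of the list: Col4a1, Col4a2 and Col15a1 of the basement membrane and Abcc9 and Kcnj8 of the pericytes. No member rose. The calls were 13.2% of the list, and 0.886% of all genes were called lower in this comparison. The median log2FC of the 38 genes was -0.47, and that of all genes was near 0 at -0.0035.

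Among the basement membrane collagens, Col15a1, a collagen that links the basement membrane to the fibers beneath it, was at 37.5 and 33.9 CPM in PBS and at 15.3 and 17.1 CPM after CDN2 (log2FC -1.14 ± 0.16, adjusted p = 0.0019). Col4a1 went from 156 and 145 CPM to 76.5 and 74.0 CPM (log2FC -1.003 ± 0.20, adjusted p = 0.014), at the limit set for the ratio. Col4a2 went from 125 and 113 CPM to 56.3 and 59.0 CPM (log2FC -1.04 ± 0.16, adjusted p = 0.0035). In all 3 genes both treated tumors lay below both PBS tumors, by more than the replicates differed. Col18a1, whose C-terminal fragment is endostatin, was at 21.3 and 20.8 CPM against 11.0 and 12.3 CPM and missed the threshold (adjusted p = 0.056).

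All 7 mural genes had a log2FC below 0, and 2 were called. Abcc9 was at 4.44 and 4.78 CPM in PBS and at 1.38 and 1.31 CPM after CDN2 (log2FC -1.77 ± 0.41, adjusted p = 0.032). Kcnj8 was at 1.72 and 1.62 CPM and then at 0.475 and 0.447 CPM (log2FC -1.85 ± 0.45, adjusted p = 0.042). These neighboring channel genes thus fell together, without overlap between the groups. Cspg4, the NG2 proteoglycan of pericytes, had a log2FC of -1.001 (adjusted p = 0.054), Notch3, a receptor that maintains mural cells, -0.79 (adjusted p = 0.075), Pdgfrb, the receptor by which pericytes follow the endothelium, -0.84 (adjusted p = 0.11), and Rgs5, a regulator of G protein signaling in pericytes, -1.08 (adjusted p = 0.305). Mcam, an adhesion molecule, was the least displaced at -0.67 (adjusted p = 0.48).

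None of the fibrillar collagens, network collagens, matrix glycoproteins, lysyl oxidases or fibroblast surface genes was called in the same tumors. The median log2FC was 0.02 for the 5 fibrillar collagens and -0.04 for the 7 matrix glycoproteins and proteoglycans, and it was below 0 for the network collagens, at -0.44 with 4 of 5 genes below 0, and for the fibroblast surface genes, at -0.38 with 3 of 4. The difference between these groups and the vascular genes was not tested. Col1a1, the main chain of type I collagen, was at 76.1 and 83.7 CPM in PBS and at 67.7 and 112 CPM after CDN2, and the groups overlapped. Its 95% interval ran from -0.67 to 1.00, so a change within this range was not detectable with these tumors. Pdgfra, the receptor for platelet-derived growth factor A on fibroblasts, was at 3.27 and 4.86 CPM against 1.40 and 0.979 CPM without passing the threshold (log2FC -1.77 ± 0.54, adjusted p = 0.11). The contractile genes Acta2, Tagln and Myl9 had log2FC values of -1.11, -0.69 and -1.04, none of them called.

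Endothelial markers moved with the vascular part of the list. Of 12 endothelial genes, 7 were called lower and none higher, with a median log2FC of -1.31. Kdr, the main VEGF receptor, had a log2FC of -2.13, Flt1 -1.41 and Emcn -1.40. The sum over the endothelial list nevertheless lay at 333 and 335 CPM against 359 and 369 CPM in PBS. Eng, its most abundant gene, was at 275 and 272 CPM against 223 and 212 CPM. Nid2, a basement membrane linker outside the 38 genes, was the only 1 of 14 tested laminin and basement membrane genes called lower (log2FC -1.39). Pdgfb, the ligand of Pdgfrb, was also lower (log2FC -1.78). It was at 2.60 and 2.29 CPM here and at 1.40 and 3.50 CPM after 100 µg, against 8.90 and 7.87 CPM in PBS. The part of the endothelium in the fall of the mural and basement membrane genes was not tested. Summed keratinocyte genes, which mark skin, were at 8.4 and 3.4 CPM against 152 and 85.7 CPM in PBS. Their part was not tested either.

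Calls were lost when single tumors were left out, while the log2FC values moved little. Without CDN2 tumor 1 or tumor 2, 2 of the 38 genes were called, without PBS tumor 1, 1 was called, and without PBS tumor 2, 2 were. Col15a1 was called in every such fit and Col4a2 in some, while Abcc9, Kcnj8 and Col4a1 were called in none. The log2FC ran from -1.83 to -1.72 for Abcc9, from -1.89 to -1.80 for Kcnj8 and from -1.05 to -0.95 for Col4a1.

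**Figure D2:**
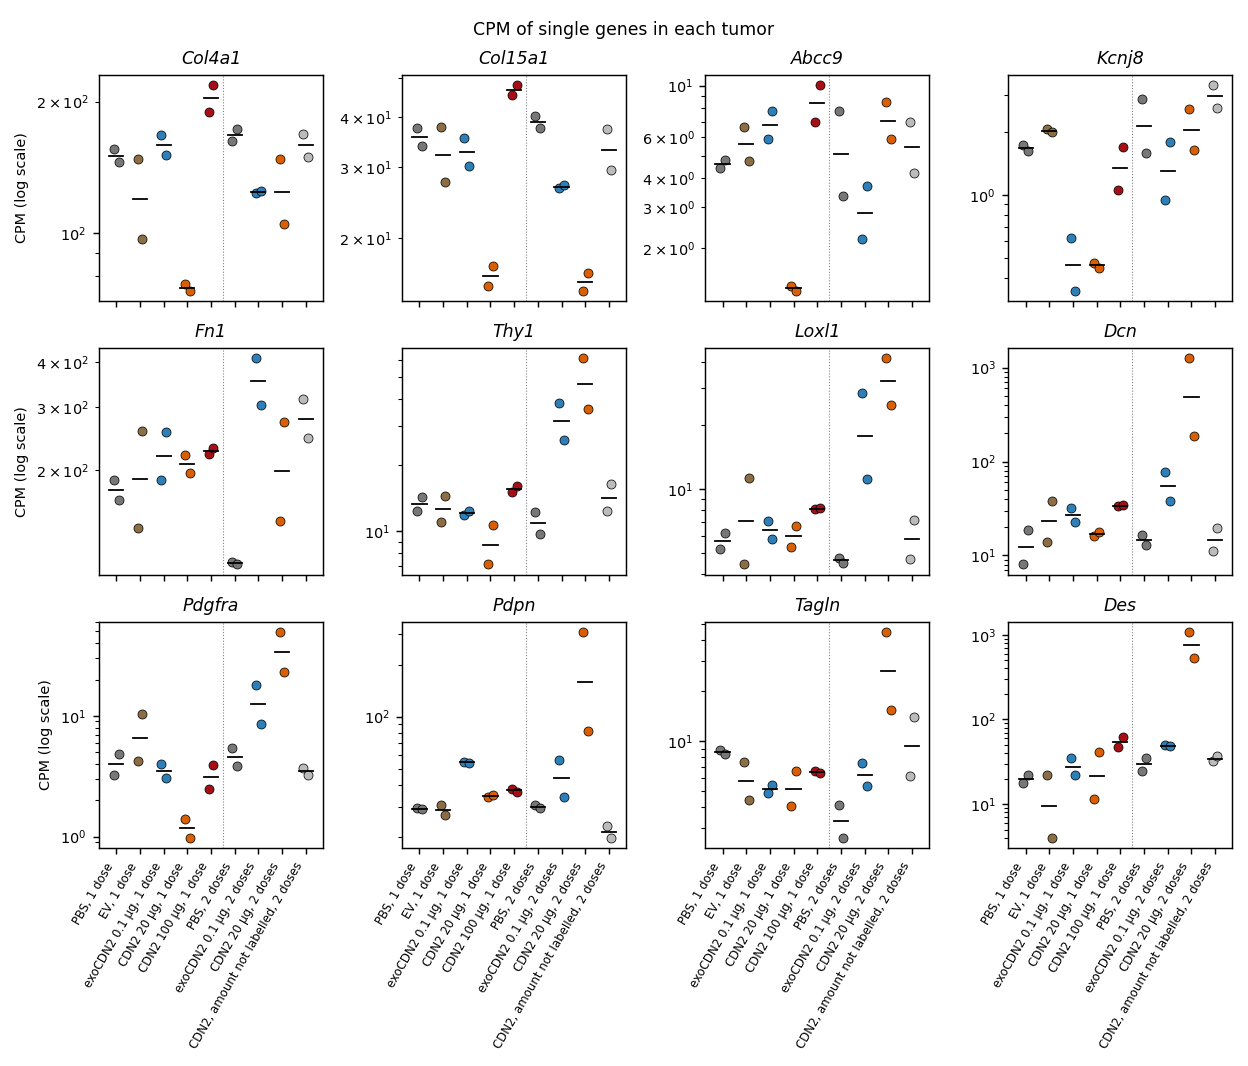
CPM (log axis) of 12 genes in each of 18 tumors (points), by group, with the bar at the geometric mean of the 2 tumors. Col15a1 is low in both groups given CDN2 (20 µg), at 14.8 to 17.1 CPM, while Dcn, Pdgfra, Pdpn, Tagln and Des peak in CDN2 (20 µg) tumor 1 after 2 doses.

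A dose of 100 µg was compared with PBS and with 20 µg to see whether more agonist did more. No member was called against PBS by edgeR, with 15 at an unadjusted p under 0.05, 3 called by DESeq2 and 2.44% of all genes called. The direction was that of a higher level: 32 of the 38 genes had a log2FC above 0, with a median of 0.66. Both 100 µg tumors lay above both PBS tumors for 27 members, and 33.2% of all genes did so. All 12 skeletal muscle genes also had a log2FC above 0 here, with a median of 2.12 and none called.

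Against 20 µg, all 38 genes had a higher level after 100 µg, with a median log2FC of 1.04, and 5 were called, against 0.230% of all genes called higher. Both 100 µg tumors lay above both 20 µg tumors for 37 of the 38 genes, while 30.3% of all genes did so. The gene without this separation was Tagln, at 6.58 and 6.45 CPM after 100 µg and at 4.08 and 6.57 CPM after 20 µg.

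Abcc9 was at 6.999 and 10.07 CPM after 100 µg and at 1.38 and 1.31 CPM after 20 µg (log2FC 2.66 ± 0.42, adjusted p = 0.031). Col15a1 was at 45.3 and 48.0 CPM against 15.3 and 17.1 CPM (log2FC 1.53 ± 0.16, adjusted p = 0.014). Col4a1 and Col4a2 had log2FC values of 1.44 and 1.18, and Col6a3, a chain of the beaded filament collagen VI, 1.77 (adjusted p = 0.048). Each of these genes was thus separated from the lower dose by more than the spread between tumors. Of the endothelial list 6 of 12 genes were called higher at 100 µg, among them Flt1, Cdh5 and Kdr. All 12 skeletal muscle genes had a log2FC above 0, with a median of 1.38 and none called, and their sums were 568 and 656 CPM against 96.4 and 315 CPM. With the muscle covariate 1 member was called. The part of these cell types in the difference was not tested. This comparison shares its 20 µg tumors with the comparison against PBS, and it was fragile: leaving out 100 µg tumor 1 left 1 member called, and leaving out 100 µg tumor 2 or either 20 µg tumor left 0.

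A single dose of exoCDN2 (0.1 µg) and of unloaded EVs was compared with PBS to separate the loaded agonist from the vesicle. For EVs, 0 of the 38 genes were called by edgeR, with 0 at an unadjusted p under 0.05, 0 called by DESeq2, and 0% of all genes called. For exoCDN2, 0 were called, with 8 at an unadjusted p under 0.05, 1 called by DESeq2 and 2.62% of all genes called. The medians were 0.19 for EVs and 0.42 for exoCDN2. Summed keratinocyte genes were at 79.4 and 2.5 CPM after EVs and at 4.3 and 1.5 CPM after exoCDN2. In the PBS tumors they were at 152 and 85.7 CPM.

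The EV tumors differed between themselves. EV tumor 2 had 26.4 CPM of Lox, 345 CPM of Col3a1 and 3.99 CPM of Des, and EV tumor 1 had 8.71, 139 and 22.3 CPM. Lox is the founding lysyl oxidase, Col3a1 is the chain of the thin reticular fibers, and Des is the intermediate filament desmin of muscle and of some pericytes. Summed skeletal muscle markers were 6.3 CPM in EV tumor 2 and 208 CPM in EV tumor 1.

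Against unloaded EVs, exoCDN2 lowered Kcnj8 alone among the 38 genes, where 0.425% of all genes were called lower. Kcnj8 was at 0.620 and 0.348 CPM after exoCDN2 and at 2.05 and 1.99 CPM after EVs (log2FC -2.05 ± 0.45, adjusted p = 0.025). No skeletal muscle or endothelial gene was called in this comparison. All 12 skeletal muscle genes nevertheless had a log2FC above 0, with a median of 2.13. Their sums were 758 and 227 CPM after exoCDN2 against 208 and 6.3 CPM after EVs. With the muscle covariate the Kcnj8 call was lost. The values of Kcnj8 did not overlap, but the call was lost when any of the 4 tumors was left out. Its neighbor Abcc9 was at 5.92 and 7.76 CPM against 6.63 and 4.74 CPM, an overlap, with a log2FC of 0.26. The pair that fell together after CDN2 (20 µg) therefore had different values after exoCDN2, and the difference between the genes was not tested.

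Compared with CDN2 (20 µg), which was a larger amount of compound, exoCDN2 tumors had higher Abcc9 (log2FC 2.34 ± 0.42), Col4a1 (1.08 ± 0.20) and Col15a1 (1.03 ± 0.16), each at an adjusted p of 0.038. These 3 calls compare with 0.201% of all genes called higher. The log2FC was above 0 for 37 of 38 genes, Tagln being the exception at -0.04, and both exoCDN2 tumors lay above both CDN2 tumors for 30 genes, with 31.0% of all genes doing so. Of the endothelial genes 5 of 12 were called higher, with a median of 1.37, and all 12 skeletal muscle genes had a log2FC above 0, with a median of 1.12 and none called. The 3 calls rest on the same CDN2 tumors as the comparisons above, and 0 were left when any 1 of the 4 tumors was taken out.

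**Figure D3:**
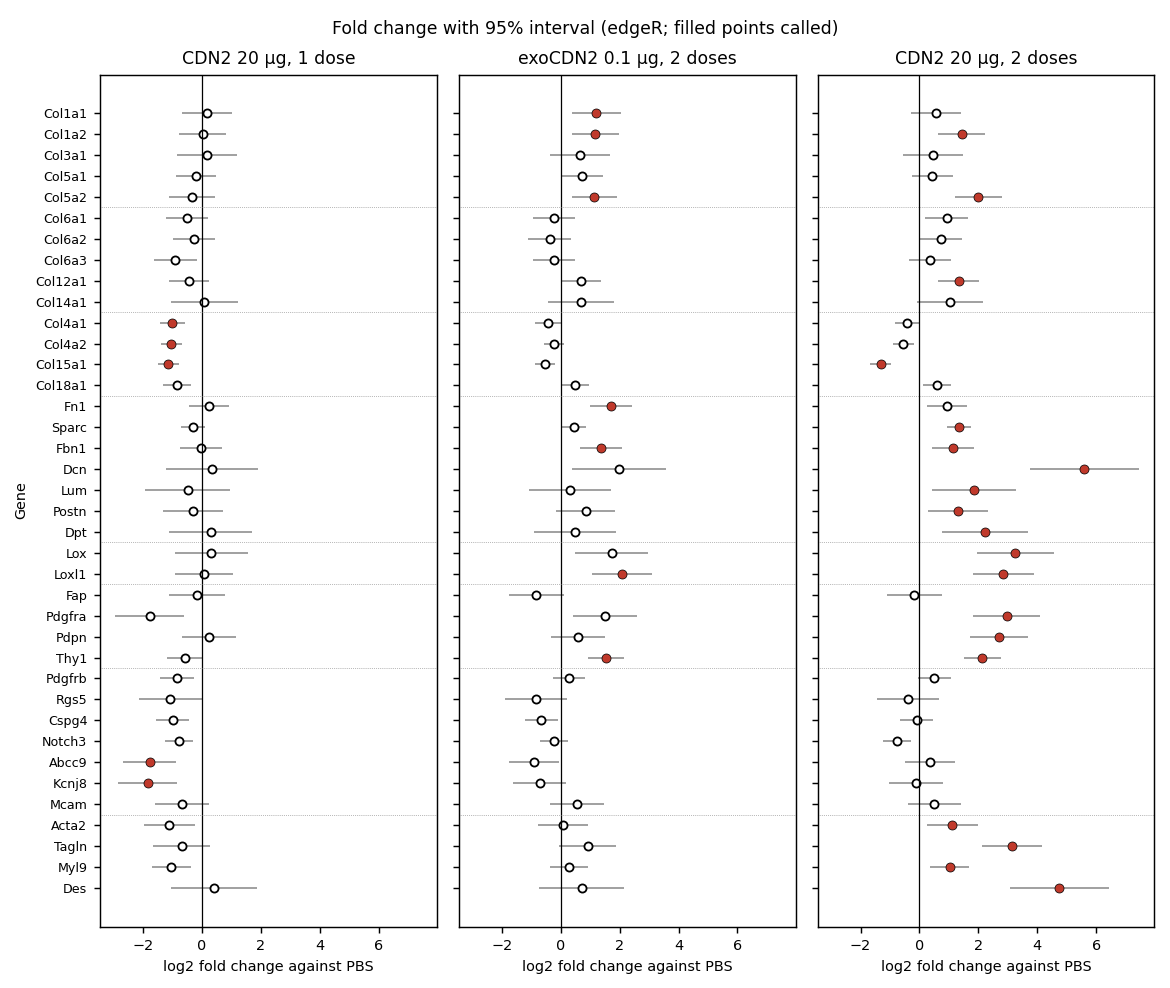
Log2 fold change against PBS with the 95% interval of edgeR's fit for the 38 genes (rows) after 1 dose of CDN2 (20 µg), 2 doses of exoCDN2 (0.1 µg) and 2 doses of CDN2 (20 µg), filled where called. The called genes are 5 lower in the first panel, 7 higher in the second, and 18 higher with 1 lower in the third.

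After 2 doses of exoCDN2, 7 of the 38 genes rose against PBS and none fell. They were the collagens Col1a1, Col1a2 and Col5a2, the fiber proteins Fn1 and Fbn1, the crosslinking enzyme Loxl1 and the surface marker Thy1. This was 18.4% of the list, with 8.87% of all genes called higher, and the median log2FC of the 38 genes was 0.52.

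Fn1, the fibronectin on which collagen fibers are assembled, was at 110 and 109 CPM in PBS and at 410 and 305 CPM after exoCDN2 (log2FC 1.71 ± 0.32, adjusted p = 0.0034). Thy1, a surface glycoprotein of fibroblasts that T cells also carry, was at 12.2 and 9.77 CPM and then at 38.1 and 26.0 CPM (log2FC 1.55 ± 0.28, adjusted p = 0.0029). Loxl1, the lysyl oxidase of elastic fibers, was at 4.76 and 4.51 CPM and then at 28.3 and 11.1 CPM (log2FC 2.09 ± 0.46, adjusted p = 0.0086). All 3 genes were separated from PBS in both tumors, and in each the first exoCDN2 tumor was the higher.

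The 3 fibrillar collagens passed narrowly. Col1a1 was at 81.1 and 78.5 CPM in PBS and at 252 and 118 CPM after exoCDN2 (log2FC 1.21 ± 0.39, adjusted p = 0.0496). Col1a2, the second chain of type I collagen, was at 92.9 and 80.1 CPM and then at 267 and 122 CPM (log2FC 1.17 ± 0.37, adjusted p = 0.045), and Col5a2, which sets the diameter of collagen fibrils, had a log2FC of 1.14 (adjusted p = 0.044). The tumors of the exoCDN2 group differed by more than 2-fold in both type I chains. Summed keratinocyte genes were at 105 CPM in exoCDN2 tumor 1, the higher tumor, and at 2.4 CPM in tumor 2. Their part in these values was not tested. Fbn1, the fibrillin of microfibrils, was at 14.9 and 16.7 CPM and then at 55.1 and 25.9 CPM (log2FC 1.36 ± 0.32). Lox, Pdgfra and Dcn had log2FC values of 1.74, 1.51 and 1.97 with adjusted p of 0.055, 0.055 and 0.0855, and were not called.

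Of the basement membrane collagens and mural genes none was called. Their medians were -0.33 and -0.66, with 3 of 4 and 5 of 7 genes below 0. The difference between these vascular genes and the called genes was not tested. Col18a1, Pdgfrb and Mcam were higher than in PBS, Col18a1 at 32.6 and 31.3 CPM against 22.5 and 23.2 CPM. Summed mural genes overlapped, at 160 and 189 CPM against 164 and 137 CPM in PBS. Col15a1, at 40.2 and 37.6 CPM in PBS and 26.6 and 27.1 CPM after exoCDN2, had an adjusted p of 0.038 with a ratio under the limit (log2FC -0.53). Without exoCDN2 tumor 1, 2 of the 38 genes were called, without exoCDN2 tumor 2, 9 were, and without either PBS tumor, 4 were. Fn1 and Thy1 were called in all these fits. With the replicate number as a block, 4 were called.

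After 2 doses of CDN2 (20 µg), 18 of the 38 genes were higher than in PBS and 1 was lower. The risers were fibroblast and matrix genes together with all 4 contractile genes, and the 1 that fell was Col15a1. The shares were 47.4% of the list called higher, with 20.0% of all genes called higher, and 2.6% called lower, with 10.6% of all genes called lower. The median log2FC was 0.98 for the 38 genes and 0.0 for all genes. Both CDN2 tumors lay above both PBS tumors for 25 genes, which 34.4% of all genes did.

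Of the 7 matrix glycoproteins and proteoglycans 6 rose. Dcn, the small proteoglycan decorin that coats collagen fibrils and a defining product of fibroblasts, was at 16.7 and 12.9 CPM in PBS and at 1255 and 185 CPM after CDN2 (log2FC 5.60 ± 0.85, adjusted p = 0.00035). Sparc was at 530 and 514 CPM and then at 1496 and 1149 CPM (log2FC 1.34 ± 0.19, adjusted p = 0.00024). Dcn had the largest log2FC of the 38 genes here, and its CDN2 tumors differed from each other far more than those of Sparc.

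Dpt, the collagen-binding dermatopontin, was at 3.13 and 3.82 CPM and then at 27.2 and 5.66 CPM (log2FC 2.23 ± 0.67, adjusted p = 0.016). Lum, the proteoglycan lumican encoded next to Dcn on chromosome 10, was at 7.28 and 7.43 CPM and then at 43.2 and 9.96 CPM (log2FC 1.84 ± 0.65, adjusted p = 0.034). In both genes most of the difference lay in CDN2 tumor 1. Postn, the matricellular protein periostin, had a log2FC of 1.30, with PBS tumors at 41.7 and 11.1 CPM. Fbn1 had a log2FC of 1.15 (adjusted p = 0.012). Fn1 was at 144 and 272 CPM against 110 and 109 CPM and had a ratio under the limit (log2FC 0.93, adjusted p = 0.028).

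Both lysyl oxidases rose. Lox was at 11.8 and 7.12 CPM in PBS and at 131 and 49.7 CPM after CDN2 (log2FC 3.25 ± 0.60, adjusted p = 0.0011). Loxl1 was at 4.76 and 4.51 CPM and then at 41.4 and 25.1 CPM (log2FC 2.84 ± 0.47, adjusted p = 0.00061). In both genes the lower CDN2 tumor was several times the higher PBS tumor.

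Of the fibroblast surface genes 3 of 4 rose. Pdgfra was at 5.42 and 3.87 CPM in PBS and at 49.5 and 23.0 CPM after CDN2 (log2FC 2.96 ± 0.52, adjusted p = 0.000825). Pdpn, the mucin-like glycoprotein podoplanin, was at 30.7 and 29.4 CPM and then at 309 and 82.3 CPM (log2FC 2.70 ± 0.45, adjusted p = 0.00057), and Thy1 was at 60.8 and 35.9 CPM against 12.2 and 9.77 CPM (log2FC 2.13 ± 0.29, adjusted p = 0.00017). Fap was not called. It was at 1.82 and 1.10 CPM against 2.21 and 1.02 CPM in PBS, an overlap (log2FC -0.17, 95% interval -1.12 to 0.77).

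The collagens were divided by class. Of the fibrillar collagens Col5a2 (log2FC 1.99 ± 0.36) and Col1a2 (1.43 ± 0.37) rose, Col5a2 from 26.0 and 22.7 CPM to 120 and 74.5 CPM. Col1a1, at 87.4 and 147 CPM against 81.1 and 78.5 CPM in PBS, and Col3a1, with a log2FC of 0.46, were not called. Both chains of type I collagen therefore had different values in the first CDN2 tumor, where Col1a2 was at 230 CPM. Col12a1, a collagen on the surface of fibrils, rose (log2FC 1.33), and the 3 collagen VI genes and Col14a1 were not called, with log2FC from 0.36 to 1.03.

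Of the basement membrane collagens 3 had a log2FC below 0 and 1 above. Col15a1 was at 40.2 and 37.6 CPM in PBS and at 14.8 and 16.4 CPM after CDN2 (log2FC -1.31 ± 0.16, adjusted p = 0.00012), close to its level after 1 dose. Col4a2 had a log2FC of -0.55 (adjusted p = 0.015) with a ratio under the limit, and Col4a1 of -0.41 (adjusted p = 0.10). Col18a1 was higher by less than the ratio limit, at 42.9 and 26.7 CPM against 22.5 and 23.2 CPM (log2FC 0.60, adjusted p = 0.038). None of the 7 mural genes was called, and Abcc9 and Kcnj8 were at 8.47 and 5.91 CPM and at 2.56 and 1.64 CPM, overlapping the PBS tumors. Notch3 had a log2FC of -0.76 (adjusted p = 0.014) below the ratio limit.

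All 4 contractile genes were called higher than after 2 doses of PBS. Des was at 24.6 and 35.3 CPM in PBS and at 1082 and 534 CPM after CDN2 (log2FC 4.75 ± 0.77, adjusted p = 0.00051). Tagln, the actin-binding protein transgelin, was at 4.12 and 2.63 CPM and then at 44.9 and 15.2 CPM (log2FC 3.15 ± 0.47, adjusted p = 0.00032). Acta2, smooth muscle actin, was at 12.9 and 11.1 CPM and then at 37.8 and 14.7 CPM (log2FC 1.12 ± 0.40, adjusted p = 0.034), and Myl9, whose upstream sequence is shown above, had a log2FC of 1.03 (adjusted p = 0.014). These groups did not overlap in the 4 genes, and Acta2 in CDN2 tumor 2 was only slightly above PBS. After 1 dose of PBS, Acta2 was at 20.1 and 19.9 CPM and Myl9 at 9.01 and 9.97 CPM. Both genes there overlapped the tumors given 2 doses of CDN2, where Myl9 was at 14.0 and 8.48 CPM.

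Markers of other cell types moved in the same CDN2 tumors. Skeletal muscle genes summed to 5354 and 2942 CPM, against 245 and 429 CPM after 2 doses of PBS and 6.3 to 758 CPM in the other groups, and 8 of 12 were called higher. Acta1, the most abundant of them, was at 2132 and 996 CPM. Of 7 tested smooth muscle genes 4 were called higher and 2 had a log2FC below 0. Their sums were 98.7 and 65.8 CPM against 49.9 and 65.2 CPM in PBS. Synpo2 was at 34.2 and 24.8 CPM against 3.73 and 4.60 CPM, while Myh11 was at 1.71 and 1.07 CPM against 2.23 and 2.36 CPM. Smtn, the most abundant, was at 54.8 and 29.3 CPM against 40.8 and 55.1 CPM. Desmin is a protein of skeletal muscle too. With the muscle sum as a covariate, chosen after seeing the data, 16 of the 38 genes were called in place of 19. Des then had a log2FC of 2.72 and Tagln of 2.51, both still called, while Acta2 had 0.36 and was not called. Col12a1, Lum and Postn lost their calls with log2FC values of 1.20, 1.66 and 1.20, close to the 1.33, 1.84 and 1.30 without the covariate. Across tumors within groups, Des was the only one of the 38 genes with a slope on the muscle sum at an adjusted p under 0.05 (0.55 log2 units per log2 unit, adjusted p = 0.0034). The slopes rest on differences within groups, and no other group reached the muscle sums of these CDN2 tumors. The covariate therefore cannot separate muscle content from treatment.

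Leukocyte genes summed to 1387 and 645 CPM after 2 doses of CDN2 and to 974 and 614 CPM after 2 doses of exoCDN2, against 162 and 132 CPM in PBS, and 12 of 12 were called higher in both comparisons. Melanocyte genes summed to 7858 and 13892 CPM after CDN2, 16247 and 17574 CPM after exoCDN2 and 25401 and 25934 CPM in PBS, with 7 of 10 called lower after CDN2 and 0 after exoCDN2. In all 3 lists CDN2 tumor 1, which also had the lowest total count, was the most extreme. The part of these shifts in the rise of the stromal genes was not tested. Keratinocyte genes were uneven within the treated groups, at 105 and 2.4 CPM after exoCDN2 and 38 and 3.3 CPM after CDN2. In PBS they were at 2.1 and 1.3 CPM. Without CDN2 tumor 1, 14 of the 38 genes were called, and 11 genes were called without any 1 of the 4 tumors: Col5a2, Col15a1, Sparc, Dcn, Lox, Loxl1, Pdgfra, Pdpn, Thy1, Tagln and Des. The log2FC of Dcn was 3.63 without CDN2 tumor 1 and 6.35 without tumor 2, and that of Pdpn 1.44 and 3.31.

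**Figure D4:**
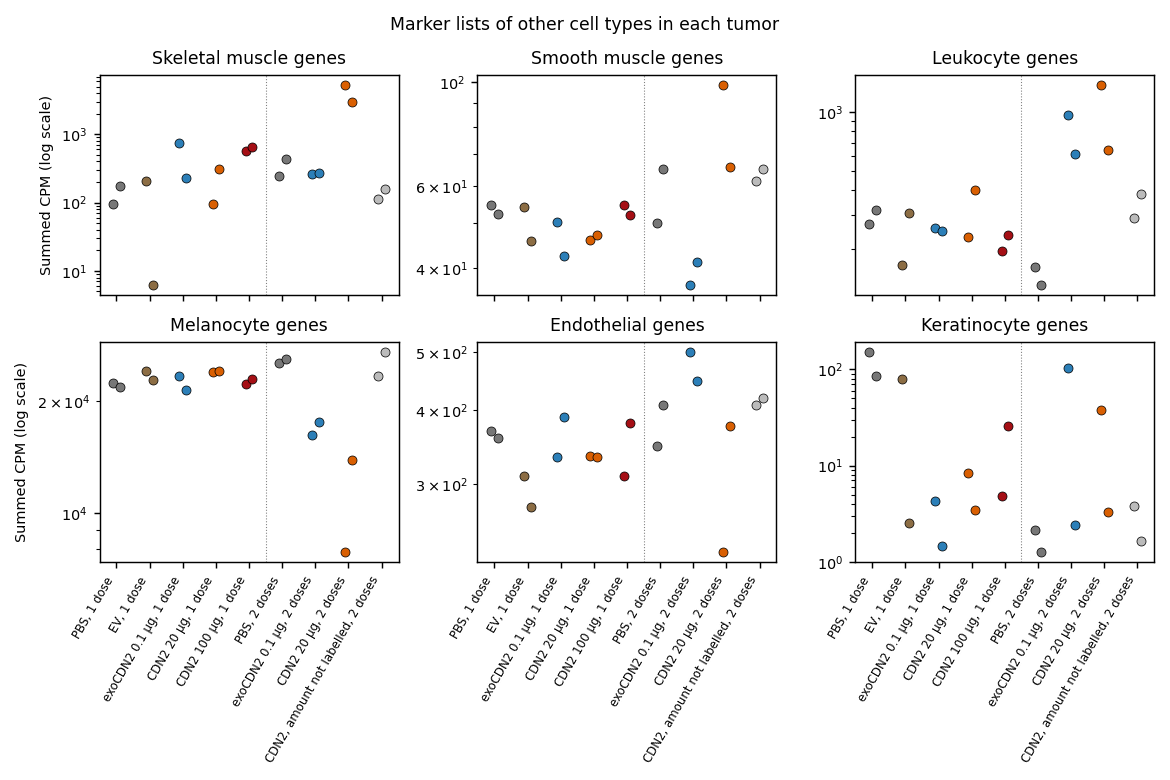
Summed CPM (log axis) of marker genes of 6 other cell types in each of 18 tumors (points), by group. Skeletal muscle sums are 5354 and 2942 CPM after 2 doses of CDN2 (20 µg) and at most 758 CPM elsewhere, and after 2 doses of exoCDN2 or CDN2 (20 µg) the leukocyte sums, 614 to 1387 CPM, lie above and the melanocyte sums, 7858 to 17574 CPM, below those of all other tumors.

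After 2 doses exoCDN2 was compared with CDN2 (20 µg), amounts that differ. Of the 38 genes 8 were lower after exoCDN2, with 12.0% of all genes called lower, and none was higher. Des was at 49.6 and 48.4 CPM after exoCDN2 against 1082 and 534 CPM (log2FC -4.04 ± 0.74, adjusted p = 0.0031). Dcn was at 78.0 and 38.2 CPM against 1255 and 185 CPM (log2FC -3.63 ± 0.77), Tagln at 7.40 and 5.35 CPM against 44.9 and 15.2 CPM (log2FC -2.23 ± 0.45), and Pdpn at 56.0 and 34.4 CPM against 309 and 82.3 CPM (log2FC -2.11 ± 0.44). In these 4 genes the groups did not overlap. Pdgfra, Abcc9, Col6a1 and Col6a2 were lower by smaller amounts, from -1.45 to -1.10.

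Col1a1 did not differ detectably between the agents, with a log2FC of 0.65 (95% interval -0.18 to 1.49). Col15a1 was higher after exoCDN2 by less than the ratio limit (log2FC 0.78, adjusted p = 0.0052). The 8 calls were unstable: 2 remained called without CDN2 tumor 1, 17 were called without CDN2 tumor 2, 10 without exoCDN2 tumor 1 and 1 without exoCDN2 tumor 2. Des was called in all 4 of these fits. Skeletal muscle genes were lower in the same comparison, 8 of 12 being called, and with the muscle covariate 2 of the 38 were called. With these 4 tumors fitted alone 0 were.

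The second dose was set against the first to see whether repeated injection changed the response. After CDN2 (20 µg), 25 of the 38 genes were higher after 2 doses than after 1, with 14.4% of all genes called higher, and the median log2FC was 1.53. Pdgfra, at 1.40 and 0.979 CPM after 1 dose and 49.5 and 23.0 CPM after 2, had a log2FC of 4.92 ± 0.58 (adjusted p = 0.00045). Abcc9 and Kcnj8, low after 1 dose, had log2FC values of 2.41 and 2.16, and after 2 doses they overlapped the PBS tumors. Col15a1 had a log2FC of -0.04 between 1 dose and 2 doses. Other cell types differed between the same tumors: 9 of 12 endothelial genes (median log2FC 1.32), 9 of 12 skeletal muscle genes and 7 of 12 leukocyte genes were higher after 2 doses, and 6 of 10 melanocyte genes were lower. Their part in the rise was not tested. With the muscle covariate 10 of the 38 were called, and with only these 4 tumors fitted, 8 were.

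After exoCDN2, 4 of the 38 genes were higher after 2 doses than after 1, with 5.10% of all genes called higher. Pdgfra was at 3.98 and 3.09 CPM after 1 dose and at 17.96 and 8.62 CPM after 2 (log2FC 1.91 ± 0.50), and Thy1 at 11.9 and 12.3 CPM and then at 38.1 and 26.0 CPM (log2FC 1.40 ± 0.28). Both genes were separated between the numbers of doses. Of the leukocyte genes 10 of 12 were called higher in these tumors, and their part in the rise was not tested. Loxl1 and Kcnj8 had log2FC values of 1.603 and 1.48. None of the 4 was called without exoCDN2 tumor 1 of either time or without tumor 2 after 1 dose, and 3 genes were called without tumor 2 after 2 doses.

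The change between doses was also tested relative to the change in PBS. For CDN2 (20 µg), 17 of the 38 genes had a higher log2FC against PBS after 2 doses than after 1, with 11.7% of all genes called higher, and 36 of 38 differences were above 0. The largest were Dcn (5.26 ± 1.06), Pdgfra (4.73 ± 0.74), Des (4.35 ± 0.98) and Tagln (3.84 ± 0.64). The count was 10 without CDN2 tumor 1 after 1 dose, 11 and 9 without PBS tumor 1 and 2 after 1 dose, and 10 without PBS tumor 2 after 2 doses. Other cell types differed in this CDN2 contrast too: 12 of 12 leukocyte, 8 of 12 endothelial and 1 of 12 skeletal muscle genes were called higher. Of the melanocyte genes 7 of 10 were called lower, and the part of these cell types was not tested. For exoCDN2, Thy1 was the 1 gene called (1.69 ± 0.39, adjusted p = 0.023), 2.6% of the list, with 5.12% of all genes called higher. In the exoCDN2 contrast 11 of 12 leukocyte genes were called higher, and their part was not tested. The Thy1 call was lost in most of the 8 fits with 1 tumor left out, and its difference there ran from 1.39 to 1.93.

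Genes of the same pathway outside the 38 were counted for the groups with 2 doses. Of all genes, 20.0% were called higher and 10.6% lower after CDN2, and 8.87% higher and 2.48% lower after exoCDN2. Of 28 tested other matrix glycoproteins and proteoglycans, 16 were higher and 4 lower after CDN2, and 8 were higher and 0 lower after exoCDN2. Tnc, the wound matrix protein tenascin C, had a log2FC of 3.17 after CDN2, Thbs1, a thrombospondin that activates latent TGF-beta, 4.59, and Fbln2, a fibulin, 3.84, while Fbln1, Fbln5 and Sparcl1 were lower at -1.17, -1.33 and -1.50. The rise was thus not shared by every matrix gene.

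Of 24 tested enzymes and chaperones of collagen modification, 11 were higher and 1 lower after CDN2 and 2 higher after exoCDN2. The prolyl 4-hydroxylase subunits P4ha1 and P4ha2 had log2FC values of 1.56 and 2.12 after CDN2, and P3h2 was lower at -1.48. Of 20 tested other collagens, 4 were higher, led by Col7a1 at 2.39, and 3 lower after CDN2, shares near those of all genes, and 0 were higher and 3 lower after exoCDN2.

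Ligands, receptors and targets of TGF-beta and PDGF were also counted. Of 21 genes 7 were higher and 1 lower after 2 doses of CDN2, and 6 were higher after exoCDN2. Ltbp2, a latent TGF-beta binding protein, had a log2FC of 4.79 after CDN2 and 3.87 after exoCDN2, and Ltbp1 of 2.89 and 2.70. Tgfbr1, the type I receptor, was at -1.14 after CDN2. Tgfbi, a TGF-beta target, was at 3.72 after exoCDN2. After 1 dose of CDN2 (20 µg), Tgfb2 and Ltbp1 were higher at 1.68 and 1.79 and Pdgfb was lower. Both 2-dose comparisons share their PBS tumors.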

How the data were processed

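RNA was measured in 18 whole B16F10 tumors. The authors extracted RNA, sequenced it on an Illumina HiSeq and aligned the reads to GRCm38 (mm10 in the submitters' processing notes) with OSA in OmicSoft ArraySuite. Ensembl R88 annotation and RSEM gave the estimated number of reads of each gene. The deposited expected counts are not normalized, and 8.753% to 12.684% of the values of a tumor were not whole. Here they were rounded. Genes were kept by filterByExpr of edgeR 4.0.16 (minimum count 10, minimum total 15), and TMM factors were applied. The quasi-likelihood fit, in R 4.3.3, gave each of 8 groups its own mean over 16 tumors (8 residual degrees of freedom, common biological coefficient of variation 0.22). A call required both an adjusted p below 0.05 and a ratio above 2, which the study had set for DESeq2. Log2FC standard errors and 95% intervals are those of this fit. CPM use the TMM-scaled totals. Totals ran from 21608895 to 65983630, and these numbers of counts limit counting error only, not the spread between tumors.

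The 38 genes and all other lists were chosen with earlier results of these data known. All 38 were named by rule, and of each other list at most 3 called genes each way with the smallest p, besides the most abundant marker genes. Some genes of these other lists are not reported here. Symbols, exon lengths and positions came from GENCODE M21 (GRCm38), with 50376 identifiers matched, and upstream sequences from RefSeq. The procedure was tested on simulated counts. Alternatives were DESeq2 1.42.0, RLE factors, no filter, no ratio limit, a replicate block, all 18 tumors, pooled PBS, only the groups compared, each tumor left out, and, added after seeing the data, a skeletal muscle covariate. The labels gave no batch, and no 2 tumors of a group agreed within sampling noise.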

Additional observations from a re-analysis of the deposited data

Results flagged for a closer look

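The effect of CDN2 (20 µg) against PBS differed between 1 and 2 doses for 17 of the 38 genes by the interaction term of edgeR's fit. The log2FC was higher after 2 doses in each, and 11.7% of all genes were called higher in this contrast. The differences in log2FC were 5.26 for Dcn, 2.33 for Col5a2, 1.43 for Col6a1, 1.77 for Col12a1, 1.45 for Col18a1 and 1.63 for Sparc among the matrix genes, and 2.93 for Lox and 2.76 for Loxl1. They were 4.73 for Pdgfra, 2.45 for Pdpn and 2.72 for Thy1 on the fibroblast surface, 1.35 for Pdgfrb and 2.13 for Abcc9 in mural cells, and 2.23 for Acta2, 3.84 for Tagln, 2.06 for Myl9 and 4.35 for Des in the contractile apparatus. Against PBS, Abcc9 had a log2FC of -1.77 after 1 dose and 0.36 after 2, and Dcn of 0.34 and 5.60. For exoCDN2 the same test called Thy1 alone, at 1.69. This was 2.6% of the list, with 5.12% of all genes called higher. Leukocyte genes also moved in both contrasts, as given above, and their part was not tested.

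The 2 tumors given 2 doses of CDN2 in an amount the labels do not state were outside all comparisons, and 4 of the 38 genes there were above both PBS tumors with a ratio of the means over 2. The ratios to PBS were 2.56 for Fn1, 2.06 for Acta2, 2.98 for Tagln and 3.17 for Myl9, and they were not tested. The share of all genes within the same limits was not determined. In Acta2 and Tagln these tumors overlapped those given 1 dose of PBS, and in Fn1 and Myl9 they did not.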

How the results depend on the processing

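No log2FC of a called gene changed direction in any alternative: of 1148 values for the 95 called pairs of a gene and a comparison, 868 stayed past the threshold, 280 did not, and 29 pairs were called in every alternative run for them. With no filter on low counts, the number of the 38 genes called was 1 for EVs, 7 for 1 dose of exoCDN2, 10 for 1 dose of CDN2 (20 µg) and 12 for CDN2 (100 µg) against PBS, 4 for exoCDN2 against EVs, 11 for exoCDN2 against CDN2 (20 µg) after 1 dose, 20 for 100 µg against 20 µg, 1 for PBS and 7 for exoCDN2 between doses, and 8 for the exoCDN2 difference relative to PBS. DESeq2 called 1 after 1 dose of exoCDN2, 3 after CDN2 (100 µg), 2 for exoCDN2 against EVs, 8 for exoCDN2 against CDN2 after 1 dose, 15 for 100 µg against 20 µg and 4 for the exoCDN2 difference relative to PBS. With only the groups compared in the fit, fewer tumors estimate the spread, and the counts were 6, 8 and 12 for exoCDN2, CDN2 (20 µg) and CDN2 (100 µg) after 1 dose, 6 for exoCDN2 against CDN2 after 1 dose and 0 after 2, 19 for 100 µg against 20 µg, 12 for 2 doses of CDN2 against PBS, 8 for CDN2 between doses, and 4 and 10 for the differences relative to PBS of exoCDN2 and CDN2. With the 4 PBS tumors pooled, 1, 9 and 1 were called after 1 dose of exoCDN2, CDN2 (20 µg) and CDN2 (100 µg), and in the fit of 18 tumors 1 after 1 dose of exoCDN2. The skeletal muscle covariate, chosen after seeing the data, left 0 for exoCDN2 against EVs, 0 and 2 for exoCDN2 against CDN2 after 1 and 2 doses, 1 for 100 µg against 20 µg, 4 for 2 doses of exoCDN2, 10 for CDN2 between doses and 0 for the exoCDN2 difference relative to PBS. The cause of these changes was otherwise not tested. The shares of all genes called under the alternatives in this section are not reported here. These counts therefore do not compare the list with other genes.

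With the replicate block, 0 genes were called for exoCDN2 against CDN2 after 1 dose, 4 for 2 doses of exoCDN2 against PBS and 2 for exoCDN2 between doses. The labels do not say that tumors with the same number belong together, and the deviations of same-numbered tumors from their group means correlated between -0.176 and 0.307 over pairs of groups, so the number was not taken as a pairing.

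With each tumor left out in turn, which leaves a lone tumor assumed to vary like the other groups, the counts ran from 1 to 2 for 1 dose of CDN2 (20 µg), from 0 to 1 for 100 µg against 20 µg, from 2 to 9 for 2 doses of exoCDN2, from 14 to 22 for 2 doses of CDN2, from 1 to 17 for exoCDN2 against CDN2 after 2 doses, from 0 to 3 for exoCDN2 and 17 to 26 for CDN2 between doses, and from 0 to 2 and 9 to 24 for the differences relative to PBS of exoCDN2 and CDN2. They were 0 throughout for exoCDN2 against EVs and against CDN2 after 1 dose. The median log2FC of the list moved by more than the spread in 6 of 179 values, all with a tumor left out, for example to -0.19 and -0.72 for 1 dose of CDN2 without its tumor 1 and tumor 2.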

Other observations

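In the 2 tumors given 2 doses of CDN2 in an unlabelled amount, the median log2 difference of the 38 genes from the PBS tumors after 2 doses was 0.067. Both tumors lay above both PBS tumors for 10 genes, below for 11, and overlapped for 17. The shares of all genes that did so were not determined, so these counts do not compare the list with other genes. Fn1 was at 315 and 246 CPM there, Myl9 at 13.1 and 21.7 CPM, Tagln at 6.16 and 14.0 CPM and Acta2 at 17.3 and 32.3 CPM. Dcn, at 11.1 and 19.5 CPM, Pdgfra, at 3.70 and 3.26 CPM, Lox, at 9.32 and 12.9 CPM, and Des, at 31.9 and 37.2 CPM, did not share the high levels of the tumors given 2 doses of 20 µg. Col15a1 was at 37.3 and 29.5 CPM, and Dpt was at 1.45 and 1.78 CPM against 3.13 and 3.82 CPM in PBS.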
